A study of Homo sapiens with 30 samples.

Results

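HT-CTCF cells are HCT116 colon carcinoma cells in which both copies of CTCF carry a HaloTag. The comparison treated here is DNMT1 inhibition in these cells after HaloPROTAC3 had been given, and it rests on the 6 libraries whose titles name HaloPROTAC3 together with either treatment, out of 30 libraries in the series. The question it addresses is how transcript levels respond to loss of DNA methylation maintenance when CTCF is targeted for degradation. In 3 cultures the DNMT1 inhibitor GSK3482364 (DNMT1i, 10 µM) was given for 1 day, and 3 cultures received 0.1% DMSO for 1 day. All 6 had been pretreated with HaloPROTAC3 and kept in it, and all 6 come from a single-cell clone, so a property of that clone cannot be told apart from a property of HCT116. The same treatments without HaloPROTAC3 (3 DNMT1i and 3 DMSO libraries of the same clone) and wild-type HCT116 cells treated for 3 days (3 DNMT1i and 3 DMSO libraries) are used for comparison only.

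Of 12 markers of colon epithelium, 7 averaged 1 CPM or more (counts scaled to library size) in both HaloPROTAC3 groups, among them EPCAM, CDH1, KRT8, KRT18 and KRT19. The others, CDX1, LGR5, CEACAM5, TFF3 and VIL1, were at or near 0. Of 14 erythroid markers, chosen for the K562 cells used elsewhere in the series, 3 reached 1 CPM with DNMT1i and 2 with DMSO, and their summed level was 14.7 to 16.66 CPM with DNMT1i and 11.2 to 15.8 CPM with DMSO. Of 10 fibroblast markers only COL1A1 reached 1 CPM in these groups, while DCN, LUM, FAP, POSTN and COL1A2 were at 0 in all 6 libraries. None of 6 T and B cell markers reached 1 CPM. Gene-assigned totals were 5082325 to 6922569 counts in the DNMT1i libraries and 6651559 to 9407430 in the DMSO libraries, so that values of rare transcripts rest on few counts.

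DNMT1 copies the methylation of CpG dinucleotides onto the new strand after replication, and cells that divide without it lose methylation passively. Genes that are held silent by promoter methylation in somatic and tumour cells, in particular germline genes, are known to be expressed when DNMT1 is inhibited. CTCF is a zinc-finger protein that halts loop extrusion by cohesin, and its binding to part of its sites is blocked by methylation of CpGs in the motif. HaloPROTAC3 joins the HaloTag to the VHL E3 ubiquitin ligase and so sends the tagged protein to the proteasome. The degradation acts on protein, which RNA-seq does not measure.

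Promoter sequence is shown first because the genes that rose most differ in how many CpGs precede their start sites. The windows are from RefSeq on GRCh38.p14, run 5′ to 3′ in the direction of the gene and end at the base before the start site. Each CG is in capitals. The 5 genes are TKTL1 (chrX:154295545-154295794, plus strand, 13 CG in 250 bases), ZFP42 (chr4:187995521-187995770, plus strand, 23 CG), CTCFL (chr20:57525653-57525902, minus strand, 2 CG) and VIM (chr10:17227991-17228240, plus strand, 8 CG), which rose, and KMT2D (chr12:49060795-49061044, minus strand, 23 CG), which fell.
TKTL1: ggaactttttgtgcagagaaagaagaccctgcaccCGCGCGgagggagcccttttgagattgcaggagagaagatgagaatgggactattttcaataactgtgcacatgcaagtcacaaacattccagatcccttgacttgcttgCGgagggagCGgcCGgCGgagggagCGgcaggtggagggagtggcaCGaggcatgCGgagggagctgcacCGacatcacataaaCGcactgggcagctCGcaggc
ZFP42: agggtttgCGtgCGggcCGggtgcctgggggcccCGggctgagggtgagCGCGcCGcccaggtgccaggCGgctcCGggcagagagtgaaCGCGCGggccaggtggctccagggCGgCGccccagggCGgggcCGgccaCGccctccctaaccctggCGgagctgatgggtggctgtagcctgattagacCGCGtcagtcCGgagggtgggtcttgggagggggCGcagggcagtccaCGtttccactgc
CTCFL: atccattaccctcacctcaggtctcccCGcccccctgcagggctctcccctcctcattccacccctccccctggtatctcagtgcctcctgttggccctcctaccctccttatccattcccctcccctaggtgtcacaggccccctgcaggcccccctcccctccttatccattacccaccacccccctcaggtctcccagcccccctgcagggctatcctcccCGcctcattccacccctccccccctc
VIM: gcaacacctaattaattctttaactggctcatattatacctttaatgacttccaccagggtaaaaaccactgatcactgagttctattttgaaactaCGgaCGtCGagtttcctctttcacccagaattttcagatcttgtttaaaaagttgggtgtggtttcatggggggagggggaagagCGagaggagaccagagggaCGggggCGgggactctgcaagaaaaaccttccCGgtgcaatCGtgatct
KMT2D: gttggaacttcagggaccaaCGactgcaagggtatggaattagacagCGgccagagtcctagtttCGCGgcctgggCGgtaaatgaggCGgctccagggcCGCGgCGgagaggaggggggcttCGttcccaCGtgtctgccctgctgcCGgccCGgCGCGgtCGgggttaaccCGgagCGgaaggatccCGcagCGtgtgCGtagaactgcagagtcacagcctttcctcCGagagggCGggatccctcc

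The start site of each gene was taken as the RefSeq start nearest to the 5′ end of its GENCODE 44 model. A window of 300 bases, from 250 before to 50 after the start, was found for 87 of the 137 genes higher after DNMT1i and for 9689 of the 12690 genes tested. The median number of CG was 20 (range 0 to 60) among the higher genes and 27 (range 0 to 69) among all genes tested. Windows with 10 CG or fewer made 29.9% of the higher genes and 9.44% of all genes tested. The letters GGCGGGA or TCCCGCC (the E2F-type motif on either strand) were in 25.3% of windows of higher genes and in 26.5% of all. CACGTG, an E-box that reads the same on both strands, was in 8.05% and in 10.4%. AGGGGGCG, a part of the CTCF core motif, searched on both strands, was in 13.8% of windows of higher genes and in 14.4% of all. These shares describe the windows and were not tested.

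With HaloPROTAC3, 137 of 12690 genes were higher after DNMT1i than after DMSO (1.08%) and 111 were lower (0.875%), at adjusted p below 0.05 in edgeR's quasi-likelihood test and a log2 fold change beyond 0.5. Without a size limit, 363 genes rose (2.86%) and 324 fell (2.55%). The median log2 fold change was 0.83 among the genes higher and -0.65 among the genes lower, beside 0.01 over all genes tested. Rises reached further than falls, with 50 genes higher and 11 lower by more than 2-fold in the fitted value. Of the 137 genes higher, 120 were protein coding and 10 were long noncoding RNAs (lncRNAs), and in 14 of them the 3 DMSO libraries together held 3 counts or fewer. The 5 without any DMSO count (LINC00958, MAGEC1, MAGEA4, PROSER2-AS1 and PNMA5) lay above the median, and above 2-fold, also when set at their lower bounds. The X chromosome held 9 of the 137 genes (6.57%) and 3.28% of all genes tested. In bulk RNA, fewer cells that express a gene and less RNA per cell cannot be told apart.

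**Figure D1:**
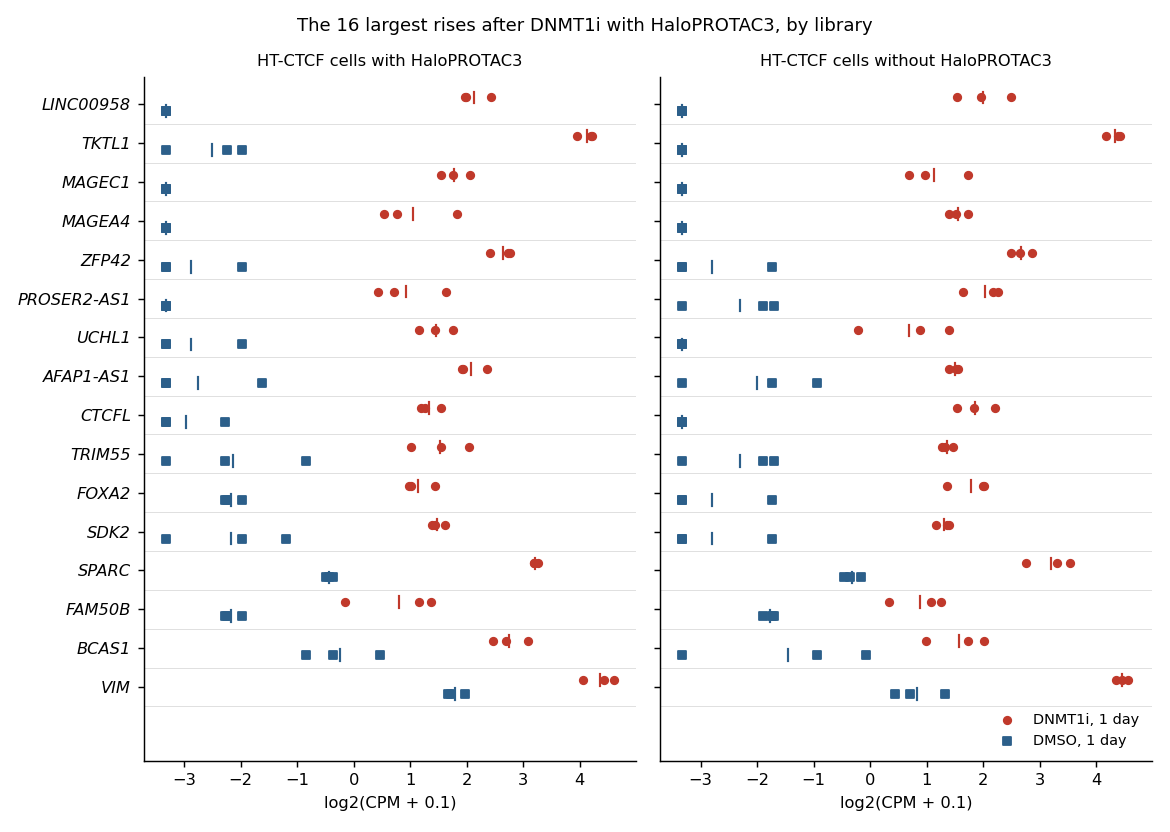
Level of the 16 largest rises in each library, as log2(CPM + 0.1). The left panel holds HT-CTCF cells with HaloPROTAC3 and the right panel the same cells without it. Circles are the 3 DNMT1i libraries, squares beneath them the 3 DMSO libraries, and vertical bars the mean of 3. In all 16 genes the DNMT1i circles lie to the right of the DMSO squares in both panels, which the choice of genes required for the left panel. Squares at the left edge are libraries with no count.

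TKTL1, a germline gene on the X chromosome that encodes a transketolase-like protein, had 15.4, 18.3 and 18.4 CPM in the DNMT1i libraries, against 0.112, 0 and 0.153 CPM in the DMSO libraries. The groups were far apart, on 289 counts with DNMT1i and 2 with DMSO, a ratio of 216 (95% counting interval 59.2 to 1791, edgeR adjusted p = 2.4e-14). The gene lies at chrX:154295795-154330350 on hg38. Intervals and floors given here cover counting error only.

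The cancer-testis antigens are genes whose expression is normally restricted to germ cells. MAGEC1 had 3.27, 2.81 and 4.05 CPM in the DNMT1i libraries, against 0 in all 3 DMSO libraries, and was at least 28.4-fold higher, taken against a floor of 3 counts over the group (adjusted p = 1.3e-06). MAGEA4 had 1.35, 1.61 and 3.43 CPM in the DNMT1i libraries and 0 in all DMSO libraries, at least 18.4-fold higher (adjusted p = 4.1e-05). Some MAGE genes are close copies of one another, and reads shared by such copies may be split or lost. CTCFL, the testis paralog of CTCF with a closely related set of zinc fingers, had 2.31, 2.81 and 2.18 CPM in the DNMT1i libraries, against 0, 0.107 and 0 CPM in the DMSO libraries. Its ratio was 59.8 on 40 counts and 1 count (95% counting interval 10.1 to 2419, adjusted p = 1.6e-05).

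ZFP42 encodes REX1, a zinc-finger protein used as a marker of pluripotent cells. Its level was 6.55, 5.22 and 6.71 CPM in the DNMT1i libraries and 0, 0 and 0.153 CPM in the DMSO libraries, on 103 counts and 1 count, which gives a ratio of 154 (95% counting interval 27.0 to 6137, adjusted p = 6.3e-10). FOXA2, a pioneer transcription factor of endoderm, had 1.93, 2.61 and 1.87 CPM in the DNMT1i libraries, against 0.112, 0.107 and 0.153 CPM in the DMSO libraries (ratio 17.4, 95% counting interval 5.50 to 88.6, adjusted p = 9.6e-05). Neither gene had a DMSO library that reached the lowest DNMT1i library, which the rule for naming the largest rises required.

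VIM and SPARC are genes of mesenchymal cells, encoding the intermediate filament vimentin and a secreted matrix protein. VIM had 21.6, 16.5 and 24.2 CPM in the DNMT1i libraries, against 3.81, 3.21 and 3.07 CPM in the DMSO libraries, a log2 fold change of 2.62 ± 0.18 (SE, adjusted p = 2.0e-11). SPARC had 9.44, 9.03 and 9.04 CPM in the DNMT1i libraries and 0.672, 0.643 and 0.614 CPM in the DMSO libraries, a log2 fold change of 3.79 ± 0.30 (SE, adjusted p = 3.1e-10). Both had counts in every DMSO library, and the groups did not overlap, which the rule for naming the largest rises required. UCHL1, a neuronal ubiquitin hydrolase that is methylated in many carcinomas, had 2.12, 2.61 and 3.27 CPM in the DNMT1i libraries, against 0, 0 and 0.153 CPM in the DMSO libraries (ratio 67.2, 95% counting interval 11.5 to 2714, adjusted p = 2.0e-05).

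LncRNAs made 3 of the 16 largest rises. LINC00958 had 3.85, 3.81 and 5.30 CPM in the DNMT1i libraries and no count in any DMSO library, so it was at least 36.4-fold higher (adjusted p = 2.0e-07). AFAP1-AS1 had 3.66, 5.02 and 3.74 CPM in the DNMT1i libraries, against 0.224, 0 and 0 CPM in the DMSO libraries, a ratio of 50.8 (95% counting interval 13.5 to 428.0, adjusted p = 3.1e-07). PROSER2-AS1 had 1.54, 3.01 and 1.25 CPM in the DNMT1i libraries and no count in DMSO libraries, at least 15.4-fold higher (adjusted p = 6.5e-05). The last pair are named as antisense genes, and because it is not known here whether counting used strand, reads of AFAP1-AS1 or PROSER2-AS1 and of an overlapping gene on the other strand may not be told apart.

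Among the rest of the 16, TRIM55 (a muscle RING-finger protein) had 1.93, 4.01 and 2.81 CPM in the DNMT1i libraries, against 0, 0.107 and 0.46 CPM in the DMSO libraries. SDK2, a cell adhesion molecule of the immunoglobulin superfamily, had 2.504, 2.61 and 2.96 CPM in the DNMT1i libraries, against 0.336, 0 and 0.153 CPM in the DMSO libraries. BCAS1 had 6.36, 5.42 and 8.42 CPM in the DNMT1i libraries and 0.672, 1.28 and 0.46 CPM in the DMSO libraries. FAM50B, an imprinted gene that arose by retroposition, had 2.12, 0.803 and 2.495 CPM in the DNMT1i libraries, against 0.112, 0.107 and 0.153 CPM in the DMSO libraries. The groups did not overlap in any of these genes, which the rule for naming the largest rises required. The log2 fold changes were 3.91 ± 0.56 (SE) for SDK2 and 2.99 ± 0.37 for BCAS1. TRIM55 had a ratio of 17.9 (95% counting interval 6.57 to 68.5, adjusted p = 4.1e-05). FAM50B, with 31 counts and 3 counts, had a ratio of 15.4 (95% counting interval 4.82 to 78.9, adjusted p = 0.00037). All 16 rises kept their call when any 1 of the 6 HaloPROTAC3 libraries was left out and after the correction for transcript length and GC content described further on. DESeq2 gave an adjusted p for only TKTL1 and VIM of the 16, and both passed there.

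**Figure D2:**
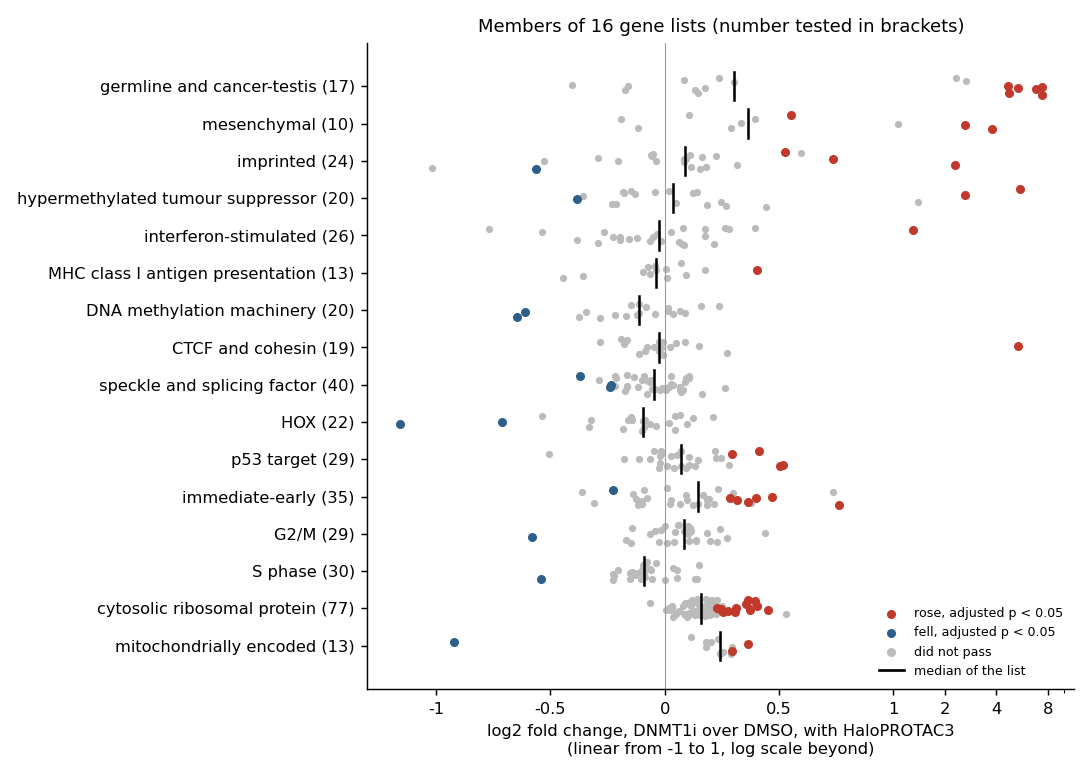
Log2 fold change of each tested member of 16 gene lists, DNMT1i over DMSO with HaloPROTAC3, on an axis that is linear between -1 and 1 and logarithmic beyond. Red points rose and blue points fell at adjusted p below 0.05, grey points did not, and black bars are list medians. Germline genes hold the points furthest to the right, and the ribosomal protein genes lie almost wholly above 0, with a median of 0.16.

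Of 94 germline and cancer-testis genes in the list, 17 passed the filter on low counts, with a median log2 fold change of 0.30. Of these 17, 6 rose and none fell, beside 2.86% of all genes that rose and 2.55% that fell. Silent genes pass that filter only where some group expresses them, so the count describes the genes measured and is not a share of the list. Besides TKTL1, MAGEC1, CTCFL and MAGEA4, the risers were MAEL and TEX13C, which fall outside the rule for named genes and are named because the count is small. MAEL, which acts in transposon silencing in germ cells, averaged 1.56 CPM with DNMT1i and 0.0373 CPM with DMSO (adjusted p = 0.00049). TEX13C averaged 1.67 CPM with DNMT1i and 0.0511 CPM with DMSO (adjusted p = 0.00049). Without the filter 19 of the germline genes rose. That fit kept every gene with a count, and 751 genes passed it in either direction. The share of all genes that rose there is not given, so the 19 cannot be set against it. DESeq2 called 1 of the germline genes, TKTL1, and gave no adjusted p for MAGEC1, MAGEA4 and CTCFL.

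Of 28 mesenchymal genes, 10 were tested and 3 rose, with none lower. Over all genes tested 2.86% rose and 2.55% fell. COL1A1, a chain of type I collagen, was the third after VIM and SPARC, with 28.3, 29.5 and 22.6 CPM in the DNMT1i libraries, against 19.4, 16.4 and 18.9 CPM in the DMSO libraries (log2 fold change 0.55 ± 0.13, SE, adjusted p = 0.010), and it lost its call without DNMT1i replicate 2 or without DMSO replicate 2. Since COL1A1 also stands in the fibroblast list, the summed fibroblast markers were 23.2 to 29.9 CPM with DNMT1i and 16.71 to 19.6 CPM with DMSO, almost all of it COL1A1, with 5 of the 10 markers at 0 in the DNMT1i libraries. Of 33 genes often hypermethylated in tumours, 20 were tested, and VIM and UCHL1 rose. THBS1, a secreted inhibitor of angiogenesis, was the member that fell, averaging 33.0 ± 3.9 CPM with DNMT1i and 42.8 ± 3.7 CPM with DMSO (SD, n = 3, edgeR adjusted p = 0.042), and THBS1 lost its call in 4 of the 6 fits that left out a library and in DESeq2.

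Imprinted genes are expressed from 1 parental allele under the control of allele-specific methylation. Of 24 tested members of the imprinted list, 3 rose and 1 fell, beside 2.86% of all genes that rose and 2.55% that fell. FAM50B, the imprinted gene named above among the largest rises, was not in this list and is not in these counts. H19, a maternally expressed lncRNA whose imprinting control region binds CTCF on the unmethylated allele, had 7.32, 6.02 and 7.80 CPM in the DNMT1i libraries, against 1.34, 1.18 and 1.84 CPM in the DMSO libraries, a log2 fold change of 2.31 ± 0.29 (SE, adjusted p = 6.1e-06). PEG10, a paternally expressed gene derived from a retrotransposon, had 74.7, 79.1 and 96.8 CPM in the DNMT1i libraries and 47.2, 54.5 and 48.9 CPM in the DMSO libraries (log2 fold change 0.74 ± 0.09, SE, adjusted p = 6.7e-06). CDKN1C, a cyclin-dependent kinase inhibitor, rose by 0.52 ± 0.15 on the log2 scale (SE, adjusted p = 0.036), a call lost in 4 of the 6 fits that left out a library. IGF2R, the receptor that clears IGF2, fell by 0.56 ± 0.10 on the log2 scale (SE, adjusted p = 0.00084). After the correction for transcript length and GC content its log2 fold change was -0.279 (edgeR adjusted p = 0.00805).

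Few genes of the interferon response passed the test. Of 26 interferon-stimulated genes tested, 1 rose, beside 2.86% of all genes, and the list median was -0.02. That gene was IRF7, the transcription factor that amplifies interferon production, with 4.82, 6.02 and 3.27 CPM in the DNMT1i libraries, against 2.35, 1.39 and 1.84 CPM in the DMSO libraries (log2 fold change 1.30 ± 0.34, SE, adjusted p = 0.021), and its call was lost in 4 of the 6 fits that left out a library. Of 9 genes of nucleic acid sensing, TBK1, the kinase upstream of the interferon regulatory factors, was the 1 that rose (0.32 ± 0.09 on the log2 scale, SE, adjusted p = 0.027), and of 13 genes of MHC class I presentation it was B2M, the invariant light chain, with 308, 321 and 288 CPM in the DNMT1i libraries and 228, 245 and 219 CPM in the DMSO libraries (log2 fold change 0.40 ± 0.08, SE, adjusted p = 0.0013). After the correction for transcript length and GC content B2M still rose (0.24, adjusted p = 0.0098) and TBK1 did not pass (0.19, adjusted p = 0.072). TBK1 also lost its call in 4 of the 6 fits that left out a library and without the filter on low counts. It was the only 1 of the 9 sensing genes with a positive log2 fold change, and their median was -0.12.

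Of 29 p53 targets tested, 4 rose (GDF15, RRM2B, TP53INP1 and CCNG1, by 0.52, 0.51, 0.41 and 0.30 on the log2 scale) and none fell, beside 2.86% of all genes that rose and 2.55% that fell. When 1 library was left out 2 to 5 of them rose, with 2 without DNMT1i replicate 2 or DMSO replicate 3, and TP53INP1 and CCNG1 each lost the call in 4 of the 6 fits. After the length and GC correction CCNG1 did not pass (adjusted p = 0.058). GDF15, a secreted stress cytokine, averaged 78.7 ± 11.5 CPM with DNMT1i and 54.8 ± 2.3 CPM with DMSO (SD, n = 3), and RRM2B, a ribonucleotide reductase subunit induced by p53, averaged 197 ± 27 CPM with DNMT1i and 139 ± 6.3 CPM with DMSO (SD, n = 3). Of 35 immediate-early genes, which respond within minutes to growth signals, 6 rose and 1 fell, including ARC (log2 fold change 0.76 ± 0.16, SE), KLF2 (0.47 ± 0.11), KLF6 (0.32 ± 0.08) and DUSP6 (0.29 ± 0.07). The member that fell, MYC, did so by 0.22 on the log2 scale (adjusted p = 0.047), and it is named because it was the only one. When 1 library was left out, 2 to 6 immediate-early genes rose, with 2 without DMSO replicate 3, and 0 to 1 fell, and 10 rose after the length and GC correction. NDRG1, a gene induced by hypoxia, had 122.5, 115 and 109.5 CPM in the DNMT1i libraries, against 76.5, 74.2 and 83.2 CPM in the DMSO libraries, and was 1 of 4 of the 25 hypoxia and glycolysis genes that rose, with HK2, the first enzyme of glycolysis, the 1 that fell (log2 fold change -0.40 ± 0.09, SE). In the fits that left out a library 1 to 4 of these genes rose, with 1 without DNMT1i replicate 1, DMSO replicate 2 or DMSO replicate 3, and 0 to 2 fell. Of 25 genes of the integrated stress response 2 rose (HERPUD1 and ATF3) and none fell, beside 2.86% of all genes that rose. Among 24 cholesterol synthesis genes 1, DHCR7, fell and none rose, which is near the 2.55% of all genes that fell. HERPUD1 lost its call in 5 of the 6 fits that left out a library, ATF3 in all 6 and in DESeq2, and DHCR7 in 3.

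Of 29 G2/M genes at 1 day, only MKI67 passed the test, and of 30 S phase genes, only E2F2, counts near the 2.55% of all genes that fell. E2F2, a transcription factor of the cell cycle, fell by 0.54 ± 0.12 on the log2 scale (SE, adjusted p = 0.0045). The medians were 0.09 for G2/M genes and -0.09 for S phase genes. None of 19 replication-dependent histone genes passed, of which 3 had an unadjusted p below 0.05. Of 22 HOX genes, HOXA13 and HOXA6 fell and none rose, but 0 to 1 fell in the fits that left out a library, where HOXA6 lost its call in 5 of 6 and HOXA13 in 3. Of 2 clustered protocadherins tested out of 53 in the list, neither passed the test. Over all genes tested 2.86% rose. Of 19 heat shock genes 2 rose (HSPB8 and DNAJB9, both chaperones) and FKBP4, a partner of HSP90, fell by 0.27 on the log2 scale. HSPB8 lost its call in 4 of the 6 fits that left out a library and DNAJB9 and FKBP4 in 3 each, and DNAJB9 also in DESeq2 and after the length and GC correction (adjusted p = 0.068). Of 11 colon epithelial genes ELF3 and KRT20 rose and CDX2, a homeobox factor of intestinal identity, fell by 0.65 on the log2 scale, and the calls of KRT20 and CDX2 were lost in 6 and 5 of the 6 fits that left out a library. Of 5 Wnt antagonists tested, DKK1 rose by 0.27 and NKD1 fell by 0.63 on the log2 scale, and DKK1 lost its call in 4 of the 6 fits. Neither of the 2 erythroid genes tested passed.

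CTCF and the genes on which the treatments act were measured in every sample. CTCF transcript was 202, 193 and 210.3 CPM in the DNMT1i libraries and 215, 216 and 214 CPM in the DMSO libraries with HaloPROTAC3, a log2 fold change of -0.09 ± 0.07 (SE, adjusted p = 0.51). Without HaloPROTAC3 it was 128, 125 and 126 CPM with DNMT1i and 132, 126 and 131 CPM with DMSO. The 6 HaloPROTAC3 libraries thus lay above the 6 libraries without it, a level that says nothing of the protein. VHL, the ligase subunit that HaloPROTAC3 recruits, averaged 58.5 ± 5.2 CPM with DNMT1i and 53.9 ± 3.1 CPM with DMSO (SD, n = 3, edgeR adjusted p = 0.51). Of 19 genes of CTCF, cohesin and their regulators, CTCF among them, CTCFL was the only one that passed the test. Over all genes tested 2.86% rose and 2.55% fell.

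DNMT1 transcript was 355, 319 and 373 CPM in the DNMT1i libraries, against 409, 397 and 413 CPM in the DMSO libraries, and missed the threshold (log2 fold change -0.22 ± 0.07, SE, adjusted p = 0.057). UHRF1, which brings DNMT1 to hemimethylated DNA, averaged 109 ± 15 CPM with DNMT1i and 122 ± 12 CPM with DMSO (SD, n = 3, edgeR adjusted p = 0.49). Of 20 genes of the methylation machinery, TET3 and TET1, dioxygenases that oxidise 5-methylcytosine, fell and none rose. Over all genes tested 2.86% rose and 2.55% fell. TET3 had 43.3, 48.0 and 35.7 CPM in the DNMT1i libraries and 52.3, 73.0 and 67.8 CPM in the DMSO libraries (log2 fold change -0.61 ± 0.11, SE, adjusted p = 0.00086), and TET1 changed by -0.65 ± 0.18 (SE, adjusted p = 0.034), a call lost in 5 of the 6 fits that left out a library. Of 40 genes of nuclear speckles and splicing, SRRM2, ACIN1 and THRAP3 fell by 0.37, 0.24 and 0.23 on the log2 scale. SRRM2, a scaffold of nuclear speckles, had 962.7, 888.5 and 827.0 CPM in the DNMT1i libraries and 1029, 1277 and 1160 CPM in the DMSO libraries. It kept its call in each fit that left out a library, whereas ACIN1 and THRAP3 lost theirs in 5 of 6. After the correction for transcript length and GC content the log2 fold change of SRRM2 was -0.195 (edgeR adjusted p = 0.0365).

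The largest falls by the rule for named genes were in ALOX5, HOXA6, HCN4, RHBDL3, SPTB, PRIMA1, CCDC80, MRO, TERT and KMT2D, all but KMT2D at 10.7 CPM or less in every library of the comparison. ALOX5, the enzyme that starts leukotriene synthesis, had 0.385, 0.401 and 0.78 CPM in the DNMT1i libraries, against 1.34, 1.61 and 3.07 CPM in the DMSO libraries (log2 fold change -1.79 ± 0.50, SE, adjusted p = 0.032). TERT, the catalytic subunit of telomerase, had 4.82, 3.61 and 3.27 CPM in the DNMT1i libraries and 7.39, 7.82 and 8.13 CPM in the DMSO libraries (edgeR adjusted p = 0.013). HCN4, a pacemaker ion channel, had 0.578, 1.61 and 1.403 CPM in the DNMT1i libraries, against 3.14, 3.32 and 3.99 CPM in the DMSO libraries (log2 fold change -1.50 ± 0.34, SE, adjusted p = 0.0081). Of these 10 genes only KMT2D kept its call in all 6 fits that left out a library. CCDC80 and MRO were higher in both HaloPROTAC3 groups than in the cells without it: CCDC80 averaged 4.12 ± 1.03 CPM with DNMT1i and 8.63 ± 1.28 CPM with DMSO under HaloPROTAC3, and 0.216 ± 0.195 CPM with DNMT1i and 0.333 ± 0.256 CPM with DMSO without it (SD, n = 3).

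KMT2D, a histone H3 lysine 4 methyltransferase with a transcript of 20635 bases, had 88.4, 74.7 and 73.6 CPM in the DNMT1i libraries, against 109, 186 and 173 CPM in the DMSO libraries (log2 fold change -0.99 ± 0.16, SE, adjusted p = 0.00021). The genes lower were mostly genes of long transcripts. The median length of the canonical transcript was 9612 bases for the 111 genes lower and 3213 bases for all genes tested, and 2786 bases for the genes higher. When the genes tested were split by transcript length into 10 groups of nearly equal size, the longest group held 66 of the 111 genes lower and 4 of the genes higher. In that group the median log2 fold change was -0.11 with HaloPROTAC3 and -0.01 without it, and in the shortest group it was 0.10 with HaloPROTAC3 and -0.002 without it.

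**Figure D3:**
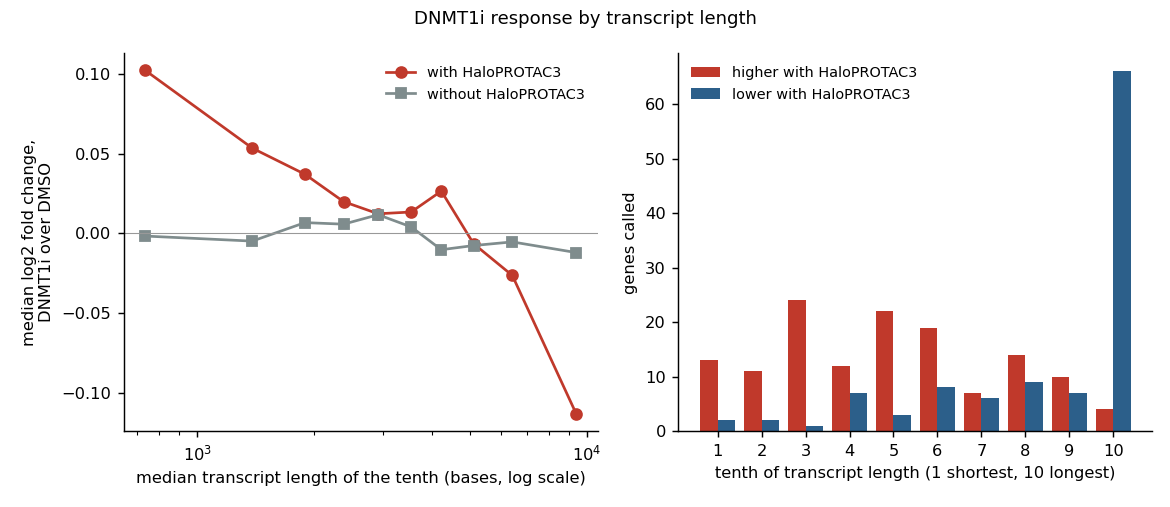
Left, median log2 fold change (DNMT1i over DMSO) in each of 10 groups of genes by transcript length, with HaloPROTAC3 (circles) and without it (squares), against the median length on a log scale. Right, the number of genes called higher and lower with HaloPROTAC3 in each group. With HaloPROTAC3 the median runs from 0.10 in the shortest group to -0.11 in the longest, which holds 66 of the 111 genes lower.

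Library composition moved with these genes. Transcripts longer than 6000 bases took 16.8% to 17.7% of the counts in the 3 DNMT1i libraries and 17.9% to 20.3% in the 3 DMSO libraries with HaloPROTAC3. Without HaloPROTAC3 they took 17.6% to 18.7% with DNMT1i and 17.7% to 18.4% with DMSO. A correction of each library for transcript length and GC content, chosen after seeing the data, left 145 genes higher and 67 lower, with 116 of the 137 higher and 44 of the 111 lower shared with the uncorrected calls. After it the median transcript of the genes lower was 3390 bases long. KMT2D then fell by 0.53 on the log2 scale (adjusted p = 0.0013) and TET3 by 0.36 (adjusted p = 0.0080). The part of library composition in these falls was not tested. Leaving out DMSO replicate 3 gave 61 genes lower and DESeq2 gave 68, with 62 higher in DESeq2.

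The ribosomal protein genes, with short and abundant transcripts, lay on the other side of 0. Of 77 cytosolic ribosomal protein genes, 76 had a positive log2 fold change and 14 rose, with none lower. Over all 12690 genes tested, 6605 were positive and 2.86% rose. The median of the list was 0.16 before the length and GC correction and 0.10 after it. Ribosomal protein genes took 6.01%, 5.20% and 5.72% of the counts in the DNMT1i libraries. In the DMSO libraries they took 5.08%, 5.23% and 5.22%, so these shares overlapped between the groups. RPS13 had 488.5, 434 and 456 CPM in the DNMT1i libraries, against 348.5, 359 and 335 CPM in the DMSO libraries (log2 fold change 0.40 ± 0.07, SE, adjusted p = 0.00094). RPS29 had 313, 239.6 and 289.7 CPM in the DNMT1i libraries and 182, 232 and 201 CPM in the DMSO libraries (log2 fold change 0.45 ± 0.09, SE, adjusted p = 0.0035), so that its lowest DNMT1i library lay just above its highest DMSO library. The number of the list's genes that rose was 14 after the correction and 4 to 26 when 1 library was left out, lowest without DNMT1i replicate 1 and highest without DNMT1i replicate 2. Ribosomal protein genes have many processed pseudogenes, which may take part of their reads.

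Of the 13 protein genes of the mitochondrial genome, MT-ND2 and MT-ND4L rose (0.36 and 0.30 on the log2 scale) and 1 fell. Over all genes tested 2.86% rose and 2.55% fell. The 2 rises did not pass after the length and GC correction, and each lost its call in 3 of the 6 fits that left out a library. MT-ND2 overlapped between the groups and also lost its call in DESeq2 and in the fit of the 6 libraries alone. The gene that fell, MT-ND6, is the only one of them encoded on the light strand and encodes a subunit of respiratory complex I. It had 72.4, 109.8 and 92.9 CPM in the DNMT1i libraries, against 173, 150.2 and 199.7 CPM in the DMSO libraries (log2 fold change -0.92 ± 0.16, SE, adjusted p = 0.00064), and kept its call after the correction (-1.08, adjusted p = 9.6e-05). As counting may not have used strand, reads of MT-ND6 and reads from the other strand there may not be told apart.

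The response with HaloPROTAC3 was next set beside the response of the same clone without it, which uses other DNMT1i and other DMSO libraries. Without HaloPROTAC3, 170 genes were higher (1.34%) and 20 lower (0.158%) by the same test. Higher genes were shared in part: 68 genes were called in both, 49.6% of the 137 with HaloPROTAC3 and 40% of the 170 without it. Of the 137, 126 had a positive log2 fold change without HaloPROTAC3, with a median of 0.74 there. Of the 170, 158 had a positive log2 fold change with HaloPROTAC3, with a median of 0.50, beside 0.86 in the cells without it. A gene called in one set of cells only is not thereby shown to differ between them.

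**Figure D4:**
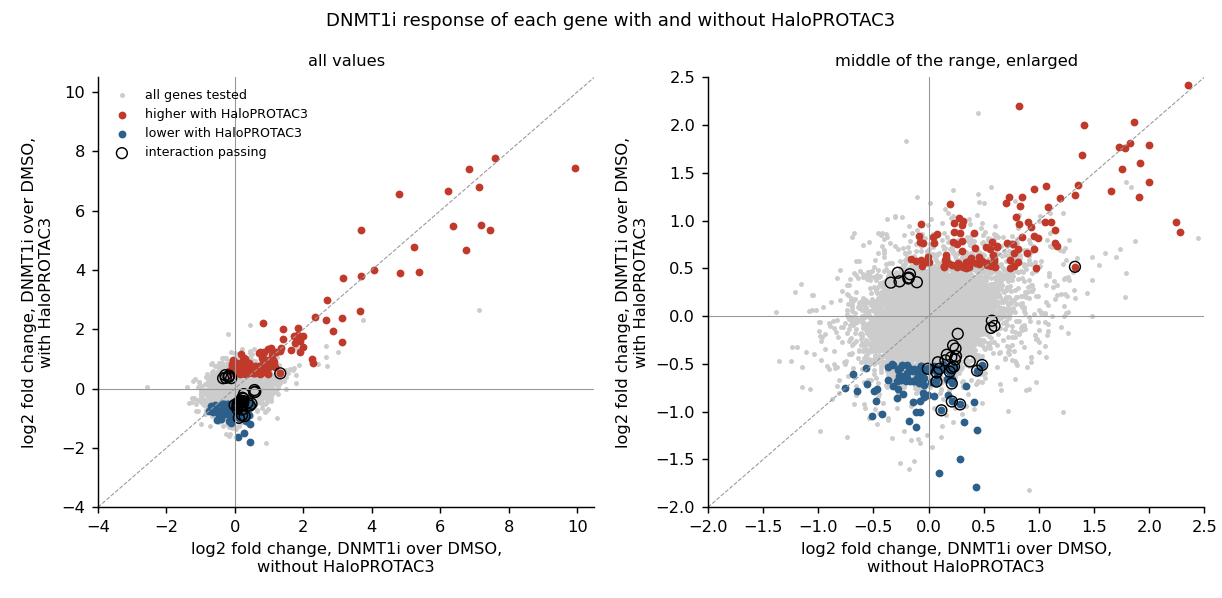
Log2 fold change of each tested gene (DNMT1i over DMSO) with HaloPROTAC3, on the y axis, against that without it, on the x axis, over all values (left) and enlarged (right). Red points are the 137 genes higher and blue points the 111 lower with HaloPROTAC3, open circles the 34 genes that pass the interaction test, and the dashed line marks equal values. The largest rises lie in the upper right, and most open circles lie below 0 on the y axis and above 0 on the x axis.

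The largest rises were seen in both sets of cells. Without HaloPROTAC3 TKTL1 had 17.9, 20.9 and 21.3 CPM in the DNMT1i libraries and 0 in all DMSO libraries, and ZFP42 had 6.16, 5.50 and 7.17 CPM in the DNMT1i libraries and 0, 0 and 0.2 CPM in the DMSO libraries. VIM had 21.8, 20.3 and 23.6 CPM with DNMT1i and 1.26, 1.53 and 2.40 CPM with DMSO there, so its DNMT1i level was alike and its DMSO level lower than with HaloPROTAC3. The difference of its log2 fold changes, with minus without HaloPROTAC3, was -1.03 (interaction adjusted p = 0.17). CTCFL had 2.81, 4.55 and 3.47 CPM with DNMT1i and 0 with DMSO in cells without HaloPROTAC3. H19 had 7.90, 8.16 and 4.40 CPM with DNMT1i and 0.628, 1.02 and 1.60 CPM with DMSO there, and the difference of its log2 fold changes was -0.36 (interaction adjusted p = 0.80). None of the 16 largest rises passed the interaction test, the smallest adjusted p among them being that of VIM. Few or no DMSO counts left many of these interactions poorly estimated, such as -2.51 for TKTL1, which had 2 DMSO counts with HaloPROTAC3 and none without it. LINC00958 had no DMSO count in either set of cells. The SE of an interaction, derived here from the F statistic, is not reliable at such counts and is left out. A miss in this test therefore does not show that the responses were equal.

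PEG10 was higher with HaloPROTAC3 in both treatments. It had 59.6, 63.2 and 62.2 CPM with DNMT1i and 28.0, 24.9 and 29.6 CPM with DMSO without HaloPROTAC3, and its log2 fold change was 0.74 with HaloPROTAC3 and 1.17 without it (interaction adjusted p = 0.18). By the rule for named genes, the 6 largest rises without HaloPROTAC3 were TKTL1, LINC00958, CTCFL, PNMA5, MAGEA4 and MAGEB1. PNMA5, a gene of the paraneoplastic antigen family, had 1.73, 0.803 and 0.312 CPM in the DNMT1i libraries with HaloPROTAC3, at least 7.47-fold higher than in DMSO libraries without a count (adjusted p = 0.0055), and 3.48, 2.28 and 2.78 CPM with DNMT1i without HaloPROTAC3. MAGEB1 had 0.193, 0.602 and 0.312 CPM with DNMT1i and 0, 0.107 and 0 CPM with DMSO under HaloPROTAC3, which did not pass (6 counts and 1 count, adjusted p = 0.16). Without HaloPROTAC3 it had 3.21, 2.09 and 3.01 CPM with DNMT1i and no count with DMSO, and the interaction did not pass for MAGEB1 at these counts (adjusted p = 0.43).

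Of the 111 genes lower with HaloPROTAC3, 2 were also called lower without it, 1.80% of the 111 and 10% of the 20, and 70 had a negative log2 fold change there, with a median of -0.07. TET3, for example, averaged 42.1 ± 2.7 CPM with DNMT1i and 44.02 ± 2.4 CPM with DMSO in cells without HaloPROTAC3 (SD, n = 3), and its interaction had an adjusted p of 0.12.

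The difference between the responses was tested as an interaction, and 34 of 12690 genes passed (0.268%), with 1788 at an unadjusted p below 0.05. In 27 of them the response was lower with HaloPROTAC3 and in 7 it was higher. The median transcript of the 27 was 10434 bases long and that of the 7 was 527 bases. Among the 137 genes higher with HaloPROTAC3 the interaction passed for 1, and among the 111 lower it passed for 13. The 1 was SUSD2, chosen after its values were seen, a membrane protein with a log2 fold change of 0.52 with HaloPROTAC3 and 1.33 without it (interaction -0.81 ± 0.17, SE, adjusted p = 0.036).

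**Figure D5:**
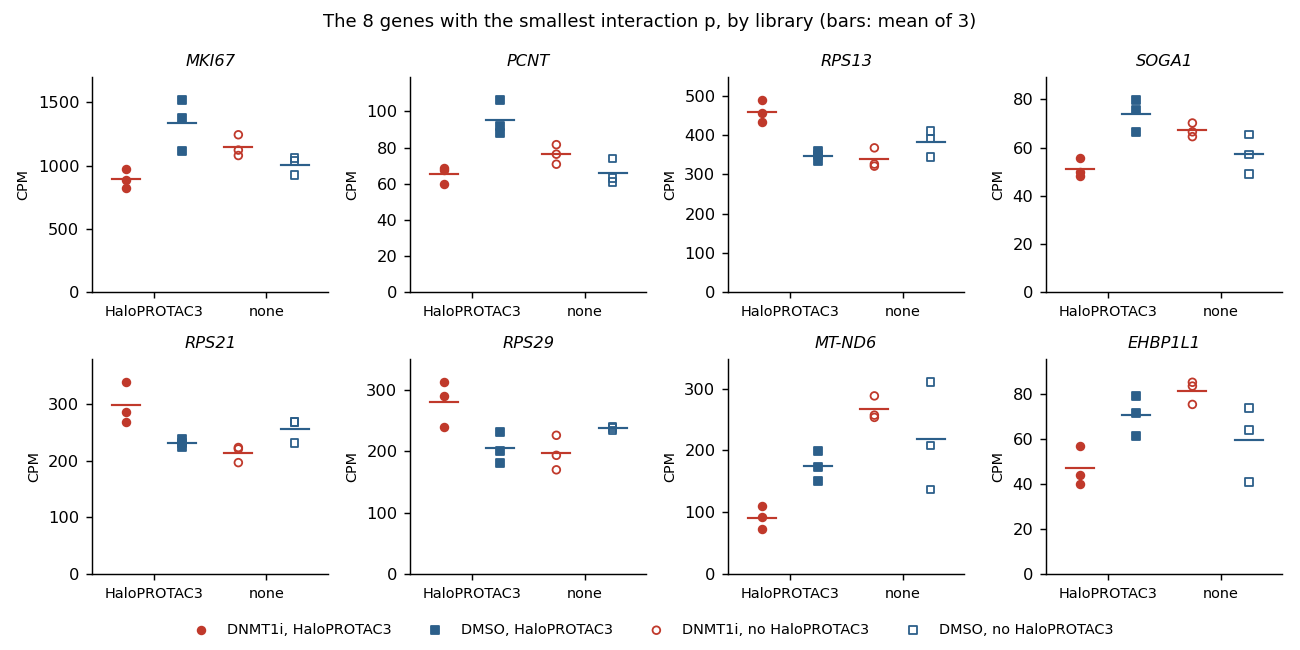
CPM of the 8 genes with the smallest interaction p in each of the 12 HT-CTCF libraries. In each panel the HaloPROTAC3 groups are on the left (filled) and those without it on the right (open), with DNMT1i (circles) before DMSO (squares) and bars at the mean of 3, and each axis starts at 0. RPS13, RPS21 and RPS29 are higher with DNMT1i under HaloPROTAC3, and the other 5 genes are lower.

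MKI67, the proliferation marker Ki-67, led the interaction. With HaloPROTAC3 it had 884.5, 821.5 and 970.8 CPM in the DNMT1i libraries and 1118, 1516 and 1372 CPM in the DMSO libraries, and without HaloPROTAC3 1079, 1243 and 1122 CPM in the DNMT1i libraries and 1034, 923.1 and 1061 CPM in the DMSO libraries. With HaloPROTAC3 the groups did not overlap, and without it the log2 fold change of 0.19 did not pass the test (adjusted p = 0.28). The interaction for MKI67 was -0.77 (adjusted p = 0.0096). After the length and GC correction the log2 fold change of MKI67 with HaloPROTAC3 was -0.336 (edgeR adjusted p = 0.000918). PCNT, a scaffold of the centrosome, had 69.0, 59.6 and 67.8 CPM with DNMT1i and 87.9, 106 and 92.0 CPM with DMSO under HaloPROTAC3, against 76.3, 81.6 and 70.8 CPM with DNMT1i and 63.2, 61.0 and 74.0 CPM with DMSO without it (interaction -0.75, adjusted p = 0.015). SOGA1 (interaction -0.76), EHBP1L1 (-1.01), MT-ND6 (-1.21) and KMT2D (-1.10) also responded lower with HaloPROTAC3. RPS13 (0.58), RPS21 (0.63), RPS29 (0.73), RPL27 (0.58) and RPS26 (0.46) responded higher.

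These calls changed with single libraries. No gene passed when HaloPROTAC3 DMSO replicate 3, no HaloPROTAC3 DNMT1i replicate 2 or no HaloPROTAC3 DMSO replicate 2 was left out of the edgeR fit, where 1335, 1478 and 1698 genes had an unadjusted p below 0.05, and 1 passed without no HaloPROTAC3 DNMT1i replicate 1, whereas 238 passed without no HaloPROTAC3 DMSO replicate 3. DESeq2 called 143, and after the length and GC correction 6 passed, which were MT-ND6, MALAT1, RPS21, MKI67, RPS29 and NPW, of which MALAT1 and NPW are named because the count is small.

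Wild-type HCT116 cells given DNMT1i for 3 days are set beside these values without a test, because line, time and depth (17074791 to 21228534 counts) differ. There 3748 genes were higher (23.6%) and 2481 lower (15.6%). All 137 genes higher with HaloPROTAC3 were tested in the wild-type cells, and 91 of them (66.4%) were higher there, beside 14.8% of the 12602 genes tested in both, while 4 were lower. Of 109 genes lower with HaloPROTAC3 that were tested there, 26 (23.9%) were lower, beside 17.2% of the genes tested in both, and 15 were higher. The median log2 fold change in wild-type cells was 1.07 for the genes higher and -0.13 for the genes lower with HaloPROTAC3.

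Single genes differed in size between the experiments. VIM had a log2 fold change of 2.62 with HaloPROTAC3 at 1 day and 6.08 in wild-type cells at 3 days, SPARC of 3.79 and 6.90, H19 of 2.31 and 7.01, and IRF7 of 1.30 and 3.21. Without a size limit, 3473 of the 12602 genes tested in both experiments rose in wild-type cells and 4112 fell. With HaloPROTAC3 363 of 12690 genes rose and 324 fell. Of the 26 interferon-stimulated genes, 1 rose with HaloPROTAC3 and 19 rose in wild-type cells. Of the 29 G2/M genes, none rose and 1 fell with HaloPROTAC3, and 26 fell in wild-type cells. Of the 77 ribosomal protein genes, 14 rose with HaloPROTAC3, and 75 fell in wild-type cells. MKI67 was lower in both (-0.58 with HaloPROTAC3 and -0.91 in wild-type cells), and NKD1, a Wnt antagonist, had a log2 fold change of -0.63 with HaloPROTAC3 and 1.70 in wild-type cells, the first of which did not pass after the length and GC correction.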

How the data were processed

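Poly(A) RNA of separate cultures was made into libraries that carry unique molecular identifiers (UMIs). The deposited values are raw counts per gene, which the authors made with UMI-tools 1.1.1, cutadapt 2.7, STAR 2.6.0 (hg38) and HTSeq, without normalisation. No source used here states the strand setting. The deposited comparison tables hold the authors' fold changes and p-values and were not used, nor were their 18 per-sample columns. The 12 HT-CTCF libraries were fitted together in edgeR 4.0.16 (R 4.3.3), with TMM scaling, filterByExpr and the quasi-likelihood test, and p-values were adjusted by Benjamini-Hochberg over all genes tested. The wild-type libraries had their own fit. CPM are TMM-scaled. A gene rose or fell where its adjusted p was below 0.05, and was called higher or lower where its log2 fold change was also beyond 0.5. The edgeR fit was tested on simulated counts, with changes placed only in genes above a minimum level. The length and GC correction was not part of that test.

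Genes named were the 16 largest rises and 10 largest falls among genes passing the test with an average log2 CPM of at least 0 and groups that did not overlap, up to 4 members with the smallest p in each list, the 8 smallest interaction p, the 6 largest rises without HaloPROTAC3, and CTCF, CTCFL, DNMT1, UHRF1 and VHL. The comparison and the lists were chosen with earlier results of these data known. Lengths and positions are from GENCODE 44, which held 99.7% of the genes. Alternatives were DESeq2 1.42.0, RLE scaling, no filter, thinned libraries, a replicate block, the 6 libraries alone, each library left out and, chosen after seeing the data, a correction for transcript length and GC content.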

Additional observations from a re-analysis of the deposited data

Results flagged for a closer look

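The response to DNMT1i differed between HT-CTCF cells with and without HaloPROTAC3, by the edgeR interaction test, for 11 genes named in the text. It was lower with HaloPROTAC3 by 0.77 on the log2 scale for MKI67 (interaction -0.77), and the interaction was -0.75 for PCNT, -0.76 for SOGA1, -1.21 for MT-ND6, -1.01 for EHBP1L1 and -1.10 for KMT2D. It was higher with HaloPROTAC3 for RPS13 (0.58), RPS21 (0.63), RPS29 (0.73), RPL27 (0.58) and RPS26 (0.46). After the correction for transcript length and GC content, MKI67, RPS21, RPS29 and MT-ND6 passed the test and the other 7 did not. Each of the 11 lost its call in at least 3 of the fits that left out 1 of the 12 libraries.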

How the results depend on the processing

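No named gene changed direction under the alternatives run. With HaloPROTAC3, DESeq2 called 62 genes higher and 68 lower, the length and GC correction called 67 lower, and fits that left out 1 library called 99 to 137 higher and 61 to 139 lower, with 61 lower when DMSO replicate 3 was left out. Without the filter on low counts, 184 genes were higher and 149 lower. Without HaloPROTAC3, the 20 genes lower became 8 in DESeq2, 13 with the 6 libraries alone, 31 after the correction and 8 to 24 when 1 library was left out. The interaction passed for 34 genes, for 143 in DESeq2, 165 without the filter, 6 after the correction and 0 to 238 when 1 library was left out, and 1788 had an unadjusted p below 0.05. Replicate numbers did not pair the samples: correlations of same-numbered deviations ran from -0.424 to 0.262. With a replicate block 128 genes were higher and 100 lower with HaloPROTAC3, and 32 passed the interaction. Of 78 named genes that passed with HaloPROTAC3, 38 kept the call in all 6 fits that left out a library, and 34 lost it without DMSO replicate 3. DESeq2 gave no adjusted p for 29 of the 78. With totals of 5082325 to 9407430 counts, genes near 1 CPM rest on few counts per library.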
